A study of Homo sapiens with 16 samples.

Results

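Integrin and laminin chain genes were followed in A498 cells, a line derived from human clear cell renal cell carcinoma, as the acyltransferases DGAT1 and DGAT2 were depleted and oxygen was lowered. The members were all genes whose symbol follows the naming of integrin alpha subunits, integrin beta subunits or laminin chains. Each had to have a probe set annotated with exactly 1 gene symbol, and the brightest probe set stood for a gene with several. Members, and the partner lists used below, were chosen with earlier results of these data known. The rule itself went by names, and signal decided only which probe set stood for a gene. It gave 34 of the 22411 genes measured, of which 18 were integrin alpha, 8 integrin beta and 8 laminin chain genes. Genes of such names without a probe set of that kind, among them LAMA5 and LAMB3, were not analysed here.

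The cells carried hairpin RNAs against both DGAT genes under a doxycycline-inducible promoter, delivered by lentivirus and selected with puromycin and G418. All 4 groups carried both hairpins and were kept in low serum. Group by group, these were doxycycline in hypoxia, vehicle in hypoxia, doxycycline in normoxia and vehicle in normoxia, each on 4 arrays labelled as biological replicates. Doxycycline or vehicle was given for 5 days, the oxygen condition lasted 2 days before RNA extraction, and hypoxia was 0.5% oxygen. No group received doxycycline without the DGAT hairpins, so an effect of the drug itself and an effect of DGAT loss cannot be told apart. The labels do not say how the cultures were kept apart, so p-values measure the spread between these arrays, which may be technical. As RNA came from whole cultures, fewer cells with a transcript and less transcript per cell cannot be told apart.

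Integrins are surface receptors made of 1 alpha and 1 beta subunit, and the pairing decides which matrix proteins a cell can hold. ITGB1 pairs with many alpha subunits to bind collagen, laminin and fibronectin. ITGAV pairs with several beta subunits, among them ITGB3, ITGB5, ITGB6 and ITGB8, to bind ligands with an RGD motif, and the ITGB2 integrins are typical of leukocytes. Laminins are cross-shaped trimers of an alpha, a beta and a gamma chain that form the sheet of basement membranes, which nidogens join to a network of type IV collagen. In kidney, tubule cells sit on such a membrane and hold it through laminin-binding integrins.

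Promoter windows of 4 genes on which the results turn are shown with motifs of factors linked to hypoxia, adhesion and stress. Each window holds 300 bases, from 250 bases before the start site in RefSeq to 50 after, read from the GRCh38.p14 assembly. ITGA5 lies at chr12:54419217-54419516 on the minus strand, LAMC1 at chr1:183023170-183023469 on the plus strand, LAMA4 at chr6:112254518-112254817 on the minus strand and ITGB8 at chr7:20330650-20330949 on the plus strand. For LAMA4 and ITGB8 the start site in that table lies inside the gene record. Capitals mark TGANTCA, the AP-1 motif, and ACGTG or GCGTG, the core of the hypoxia response element, on either strand. The NF-kB consensus was also searched and is in none of these 4 windows.
ITGA5: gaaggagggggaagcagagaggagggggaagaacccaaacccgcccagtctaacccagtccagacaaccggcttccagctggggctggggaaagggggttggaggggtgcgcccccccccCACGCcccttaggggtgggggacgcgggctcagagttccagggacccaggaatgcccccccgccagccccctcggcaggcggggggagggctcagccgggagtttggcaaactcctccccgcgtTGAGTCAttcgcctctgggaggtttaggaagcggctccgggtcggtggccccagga
LAMC1: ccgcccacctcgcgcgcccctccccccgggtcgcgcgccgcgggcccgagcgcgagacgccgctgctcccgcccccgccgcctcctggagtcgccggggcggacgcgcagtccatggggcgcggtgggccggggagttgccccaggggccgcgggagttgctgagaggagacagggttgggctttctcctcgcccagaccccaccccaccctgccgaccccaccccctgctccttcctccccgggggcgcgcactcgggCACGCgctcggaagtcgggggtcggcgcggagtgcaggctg
LAMA4: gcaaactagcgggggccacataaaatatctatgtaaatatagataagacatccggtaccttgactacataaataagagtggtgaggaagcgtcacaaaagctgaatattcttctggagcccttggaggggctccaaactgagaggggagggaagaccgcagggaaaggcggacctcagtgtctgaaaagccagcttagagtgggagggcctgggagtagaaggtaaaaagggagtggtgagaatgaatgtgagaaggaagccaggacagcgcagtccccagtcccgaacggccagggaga
ITGB8: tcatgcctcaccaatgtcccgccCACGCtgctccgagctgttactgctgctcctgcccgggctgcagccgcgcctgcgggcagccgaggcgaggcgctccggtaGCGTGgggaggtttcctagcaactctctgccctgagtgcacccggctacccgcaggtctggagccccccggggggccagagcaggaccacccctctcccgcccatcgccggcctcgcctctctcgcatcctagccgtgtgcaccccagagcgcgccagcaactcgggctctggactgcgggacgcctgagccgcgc

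The AP-1 match of ITGA5 starts 6 bases before the start site, and it was the only one among the 23 members with a window. Of 27305 promoter windows of this length, 7.76% held that motif. The hypoxia core stood in 11 of the 23 members (47.8%), close to its share of 48.4% over all windows. It occurred once in ITGA5 and LAMC1, at 2 places in ITGB8 and not in LAMA4. The NF-kB consensus was found in 4 members, ITGA10, ITGA11, ITGB1 and LAMB1 (17.4%), against 7.41% of all windows. These are matches of letters and do not show that a factor binds there.

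The arrays were checked on both targets and on cell type markers. Doxycycline arrays had DGAT1 signals of 5.10 to 5.28 in hypoxia, against 6.24 to 6.70 with vehicle, and 5.04 to 5.20 in normoxia, against 6.67 to 6.99 with vehicle, on the deposited log2 scale. For DGAT2, doxycycline left 37.9% of the vehicle signal in hypoxia and 28.1% in normoxia (exact two-sided permutation p = 0.0286 for either gene and either oxygen level, which is the lowest value 70 arrangements can give). All 9 measured markers of clear cell renal carcinoma lines reached 4.89, the median level of all genes, in every group. None of 7 leukocyte, 4 platelet and 6 endothelial markers did so in any group, their group means lying between 2.96 and 4.17. Values above 16, beyond a 16-bit scanner's log2 range, occur in the table, so folds are those of the deposited scale. The signals of different genes come from different probes and are not amounts of RNA to be set against each other. Of the variance within groups, 63.3% lay along 1 axis, with vehicle hypoxia replicate 4 at one end (45.8) and doxycycline hypoxia replicate 4 at the other (-31.5), the other arrays lying between -26.1 and 22.9.

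Across the members, a few genes rose with doxycycline in the fit to all arrays and none passed the test for a fall. In normoxia 5 of 34 members (14.7%) rose at an adjusted p under 0.05 and 0 fell, where 9.08% of all genes were called, 4.43% higher and 4.65% lower. In hypoxia 4 members (11.8%) rose and 0 fell, where 4.66% of all genes were called, 2.67% higher and 1.99% lower. That lean over all genes was not stable, since 57.2% of calls were higher here, 76.2% with another quantile normalization, 40.1% with array weights and 35.6% without vehicle hypoxia 4 and doxycycline hypoxia 4. At an unadjusted p under 0.05, 4 members were lower in normoxia and 0 in hypoxia, and the methods' t-test called 0 lower at either oxygen level. Other settings called falls in normoxia, with 2 members for array weights (ITGA3 and LAMB2), 1 for the compared arrays alone and 1 without vehicle hypoxia 4 and doxycycline hypoxia 4 (ITGA3 each time). Leaving out vehicle hypoxia replicate 3 called a fall of ITGA3 there, and leaving out vehicle hypoxia replicate 4 falls of ITGA3 and ITGB4. The median difference of the 34 members was 0.02 in normoxia, against -0.02 for all genes, and 0.06 in hypoxia, against -0.00 for all genes. Hypoxia moved members in both directions. With doxycycline 2 rose and 2 fell (11.8%), where 3.98% of all genes were called, 1.02% higher and 2.97% lower. With vehicle 3 rose and 3 fell (17.6%), where 6.91% of all genes were called, 2.26% higher and 4.65% lower. Under hypoxia with doxycycline the split was 1 higher and 2 lower when arrays were centred on their medians, and 2 and 1 with another quantile normalization. The members' median difference under hypoxia was 0.00 with doxycycline, against -0.01 for all genes, and -0.05 with vehicle, the same as for all genes. With dim genes left out, 18 members and 11507 genes remained. Doxycycline then called 3 members (16.7%) in hypoxia and 6 (33.3%) in normoxia, against 10.8% and 18.4% of those genes. Hypoxia called 4 (22.2%) with doxycycline and 5 (27.8%) with vehicle, against 10.2% and 16.9%. Each doxycycline comparison shares 4 arrays with each hypoxia comparison, so their calls on 1 gene are not independent.

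**Figure D1:**
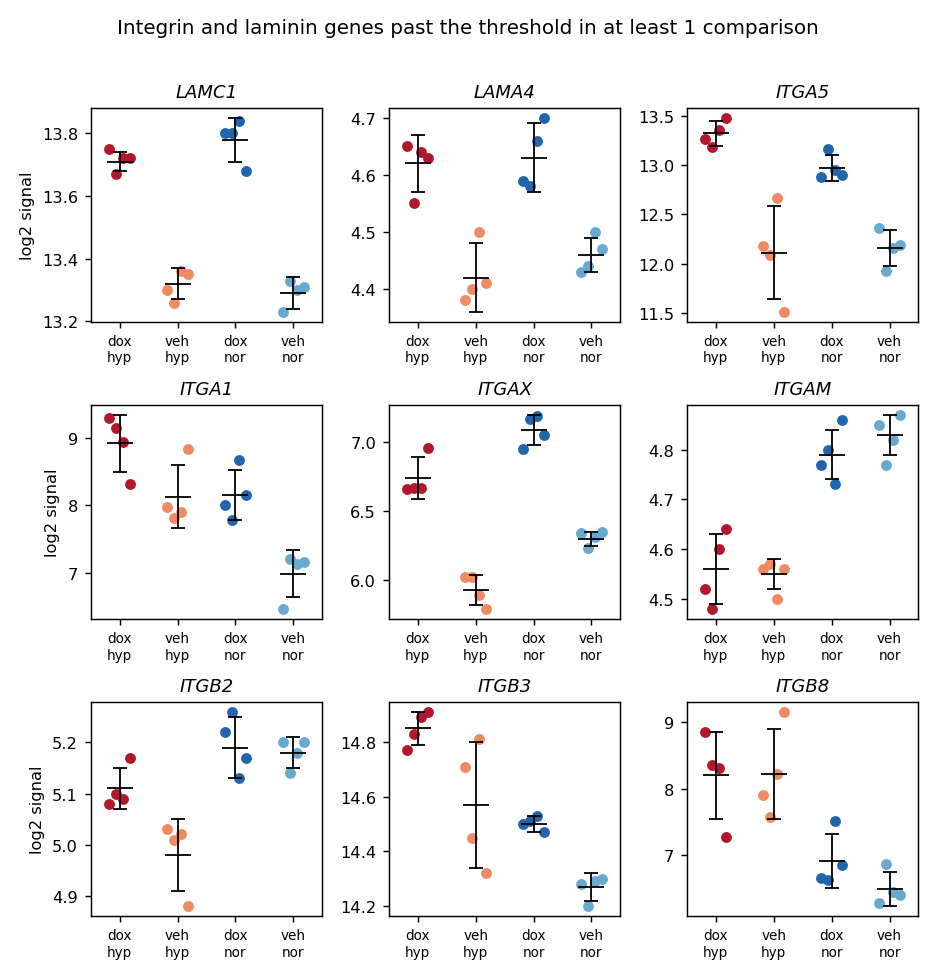
Log2 signal of the 9 members past the threshold in at least 1 comparison, 1 panel per gene with its own axis, in the 4 groups named below each panel (dox, doxycycline; veh, vehicle; hyp, hypoxia; nor, normoxia). Points are arrays and bars show the mean ± SD (n = 4); doxycycline arrays of LAMC1, LAMA4, ITGA5 and ITGAX lie above vehicle arrays at the same oxygen level, and hypoxia arrays of ITGAM lie below normoxia arrays.

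LAMC1, the gamma chain of most laminin trimers, was higher with doxycycline at both oxygen levels and was the laminin gene with the highest signal. In hypoxia its signals were 13.75, 13.67, 13.72 and 13.72 on doxycycline arrays, against 13.30, 13.26, 13.36 and 13.35 on vehicle arrays. In normoxia they were 13.80, 13.80, 13.84 and 13.68 with doxycycline, against 13.23, 13.33, 13.30 and 13.31 with vehicle. No doxycycline array reached down to a vehicle array, and the arrays of a group lay close together. The difference was 0.39 ± 0.05 (SE) in hypoxia, a 1.31-fold increase (adjusted p = 0.000402), and 0.49 ± 0.05 in normoxia, a 1.41-fold increase (adjusted p = 4.22e-05). Both calls held in all 16 fits with 1 array left out and under all other settings tried. Hypoxia gave LAMC1 a difference of 0.03 with vehicle (95% interval -0.08 to 0.14) and -0.07 with doxycycline (-0.18 to 0.04), neither past the threshold.

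LAMA4, an alpha chain known from blood vessel and muscle basement membranes, rose with doxycycline by a smaller amount and from a dim probe set. Its signals in hypoxia were 4.65, 4.55, 4.64 and 4.63 with doxycycline, against 4.38, 4.40, 4.50 and 4.41 with vehicle. In normoxia they were 4.59, 4.58, 4.66 and 4.70 with doxycycline, against 4.43, 4.44, 4.50 and 4.47 with vehicle. The groups did not overlap at either oxygen level, but all 16 values lay below the median level of all genes (4.89). The difference was 0.20 ± 0.04 in hypoxia (1.15-fold, adjusted p = 0.011) and 0.17 ± 0.04 in normoxia (1.13-fold, adjusted p = 0.0178). Under the other settings the hypoxia call was kept in 8 of 11, with an adjusted p of up to 0.0948. The normoxia call was lost without doxycycline normoxia replicate 3 or 4, with an adjusted p of up to 0.0622, and when all probe sets were tested by identifier (0.0704).

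The other laminin genes gave no call in any of the 4 comparisons. Over all 8 laminin genes limma called 0 for hypoxia, where 1 with doxycycline and 0 with vehicle had an unadjusted p under 0.05 and the methods' t-test called 0. Limma called 3.98% of all genes for hypoxia with doxycycline and 6.91% with vehicle. With 8 genes, a count of 0 cannot be told from those shares. LAMB1, the beta chain that joins LAMC1 in the common laminins, had group means of 12.72 with doxycycline and 12.43 with vehicle in hypoxia, and 12.58 and 12.22 in normoxia. Its difference was 0.28 ± 0.11 in hypoxia (adjusted p = 0.186) and 0.36 ± 0.11 in normoxia (adjusted p = 0.0549), where every doxycycline array was above every vehicle array. Without vehicle hypoxia replicate 4 both values passed, at 0.0326 in hypoxia and 0.0197 in normoxia. LAMA1, an alpha chain of embryonic and kidney basement membranes, differed with doxycycline by 0.11 in hypoxia (adjusted p = 0.588) and 0.24 in normoxia (adjusted p = 0.0847). LAMB2, a beta chain of the glomerular membrane, differed by -0.19 in hypoxia (adjusted p = 0.399) and -0.29 in normoxia (adjusted p = 0.0955). LAMA2, LAMB4 and LAMC3 stayed between 3.40 and 4.02 on all arrays.

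Proteins that share the basement membrane with laminin were examined through a list of 20 genes, of which 19 were measured. With doxycycline 4 of them (21.1%) rose and 0 fell at each oxygen level, where 4.66% of all genes were called in hypoxia and 9.08% in normoxia. These were NID1, NID2, COL4A1 and COL4A5 both times. NID2, a nidogen that ties laminin to collagen, had signals of 6.16, 6.18, 6.21 and 6.17 with doxycycline in hypoxia, against 5.18, 4.99, 5.55 and 4.99 with vehicle. In normoxia its signals were 5.96, 5.94, 6.04 and 5.93 with doxycycline, against 4.84, 4.75, 4.87 and 4.95 with vehicle. The 2 treatments did not overlap at either oxygen level. The difference was 1.00 ± 0.10 in hypoxia, 2.00-fold (adjusted p = 2.44e-05), and 1.11 ± 0.10 in normoxia, 2.16-fold (adjusted p = 6.38e-06). NID1, the other nidogen, was higher by 0.95 in hypoxia (adjusted p = 0.000141) and 0.89 in normoxia (adjusted p = 0.000156). COL4A1, a chain of the collagen IV network found in all basement membranes, was higher by 0.64 in hypoxia (adjusted p = 0.00363) and 0.89 in normoxia (adjusted p = 0.00021). COL4A5, a chain of the collagen IV of glomerular membranes, had group means of 4.98 with doxycycline and 4.76 with vehicle in hypoxia, and 5.00 and 4.66 in normoxia. These lie near the median level of all genes (4.89). COL4A2, another collagen IV chain on the list, was not called. Its group means were 9.86 with doxycycline and 9.96 with vehicle in hypoxia, and 9.79 and 9.82 in normoxia. All 8 calls held whichever array was left out. Hypoxia called 0 of the 19 genes with limma at either treatment, 5 at an unadjusted p under 0.05 each time, and 1 with doxycycline and 0 with vehicle by the methods' t-test. Over all genes limma called 3.98% for hypoxia with doxycycline and 6.91% with vehicle. At such shares few calls would be due among 19 genes, so the 0 says little about this list. The median difference of the list with doxycycline was 0.02 in hypoxia and -0.01 in normoxia, against -0.00 and -0.02 for all genes.

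Among the alpha subunits, ITGA5 was higher with doxycycline at both oxygen levels. Its protein pairs with ITGB1 to form the main fibronectin receptor. The signals in hypoxia were 13.26, 13.18, 13.36 and 13.48 with doxycycline, against 12.18, 12.09, 12.67 and 11.51 with vehicle. The normoxia signals were 12.88, 13.16, 12.95 and 12.90 with doxycycline, against 12.36, 11.93, 12.16 and 12.19 with vehicle. Treatments did not overlap, and the vehicle arrays in hypoxia spread most, with replicate 4 the lowest. The difference was 1.21 ± 0.18 in hypoxia, 2.31-fold (adjusted p = 0.000879), and 0.82 ± 0.18 in normoxia, 1.76-fold (adjusted p = 0.00929). Each call held in all 16 fits with 1 array left out, while the methods' t-test gave an adjusted p of 0.111 in hypoxia. Hypoxia itself gave ITGA5 a difference of 0.34 with doxycycline (adjusted p = 0.376) and -0.05 with vehicle (adjusted p = 0.883).

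ITGA1, the alpha subunit of a receptor for collagen and laminin, had its lowest signals in vehicle normoxia. They were 9.29, 9.14, 8.93 and 8.32 on doxycycline hypoxia arrays, 7.98, 7.82, 7.91 and 8.83 on vehicle hypoxia arrays, 8.01, 7.79, 8.67 and 8.16 on doxycycline normoxia arrays and 6.47, 7.21, 7.14 and 7.16 on vehicle normoxia arrays. All vehicle normoxia arrays were below all others. Doxycycline raised it in normoxia by 1.16 ± 0.26, 2.24-fold (adjusted p = 0.0119), a call that held in all 16 fits with 1 array left out. In hypoxia the difference was 0.79 ± 0.26 and missed the threshold (adjusted p = 0.114). Hypoxia raised it with vehicle by 1.14 ± 0.26, 2.20-fold (adjusted p = 0.0177), and gave 0.76 ± 0.26 with doxycycline (adjusted p = 0.138). The vehicle call was lost without vehicle normoxia replicate 1, the lowest array (adjusted p = 0.0622), and was kept under 9 of 12 other settings (adjusted p up to 0.167).

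ITGAX, known as an alpha subunit of leukocyte integrins and of dendritic cells, rose with doxycycline and fell in hypoxia. In hypoxia its signals were 6.66, 6.67, 6.67 and 6.96 with doxycycline, against 6.02, 6.02, 5.89 and 5.79 with vehicle. In normoxia they were 6.95, 7.17, 7.19 and 7.05 with doxycycline, against 6.34, 6.23, 6.31 and 6.35 with vehicle. The treatments were apart at both oxygen levels, by more than the spread of any group. Doxycycline gave a difference of 0.81 ± 0.08 in hypoxia, 1.75-fold (adjusted p = 3.94e-05), and 0.78 ± 0.08 in normoxia, 1.72-fold (adjusted p = 3.08e-05). Both calls held without any 1 array and under all other settings tried. Hypoxia gave -0.37 ± 0.08 with vehicle (adjusted p = 0.0127) and -0.35 ± 0.08 with doxycycline (adjusted p = 0.0233), where doxycycline hypoxia replicate 4 overlapped the normoxia arrays. The doxycycline call was lost in 6 of the 16 fits with 1 array left out, those without doxycycline normoxia replicate 2, 3 or 4 or doxycycline hypoxia replicate 1, 2 or 3. Under the other settings it was kept in 7 of 12 (adjusted p up to 0.108), and the vehicle call in 9 of 12 (adjusted p up to 0.093).

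No leukocyte marker passed the test for doxycycline where ITGAX did. PTPRC, the leukocyte common antigen, had group means of 3.26 with doxycycline and 3.26 with vehicle in hypoxia, and 3.28 and 3.36 in normoxia. Limma called 0 of the 7 measured leukocyte markers for doxycycline at either oxygen level, and 0 at an unadjusted p under 0.05. Over all genes 4.66% were called in hypoxia and 9.08% in normoxia. The summed signal of the 7 markers per array was 6.16 to 6.27 with doxycycline and 6.13 to 6.37 with vehicle in hypoxia, and 6.19 to 6.31 and 6.24 to 6.45 in normoxia. ITGAM lies next to ITGAX on chromosome 16, with no protein-coding gene between them in RefSeq, and ITGAD follows on its other side. ITGAM, the alpha subunit of the macrophage integrin, had 4.52, 4.48, 4.60 and 4.64 on doxycycline hypoxia arrays, 4.56, 4.57, 4.50 and 4.56 on vehicle hypoxia arrays, 4.77, 4.80, 4.73 and 4.86 on doxycycline normoxia arrays and 4.85, 4.77, 4.82 and 4.87 on vehicle normoxia arrays. Each hypoxia array was below each normoxia array at the same treatment. ITGAM fell in hypoxia by 0.23 on the log2 scale with doxycycline (adjusted p = 0.00861) and fell by 0.28 with vehicle (adjusted p = 0.0024), both at signals under the median level of all genes. Only the methods' t-test ended these calls, with adjusted p values of 0.0563 and 0.0533. With doxycycline its difference was 0.01 in hypoxia and -0.04 in normoxia, neither called, and ITGAD had no call in any comparison.

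None of the other alpha subunits was called in any comparison. ITGAV, which pairs with ITGB3, ITGB5, ITGB6 and ITGB8, had 14.81, 14.46, 14.14 and 12.96 on doxycycline hypoxia arrays, 13.62, 13.46, 13.28 and 14.90 on vehicle hypoxia arrays, 12.98, 12.69, 14.27 and 13.49 on doxycycline normoxia arrays and 11.88, 13.20, 12.48 and 12.58 on vehicle normoxia arrays. Doxycycline gave 0.28 ± 0.45 in hypoxia (adjusted p = 0.832) and 0.82 ± 0.45 in normoxia (adjusted p = 0.273), and hypoxia with vehicle gave 1.28 ± 0.45 (adjusted p = 0.0985). ITGA4, the subunit that binds VCAM1 and fibronectin, differed with doxycycline by 0.67 in hypoxia (adjusted p = 0.247) and 0.74 in normoxia (adjusted p = 0.131). ITGA6, which binds laminin, differed by 0.40 in hypoxia (adjusted p = 0.18) and 0.27 in normoxia (adjusted p = 0.303). ITGA2, a collagen receptor subunit whose gene lies near ITGA1 on chromosome 5, differed by -0.05 in hypoxia (95% interval -0.52 to 0.42) and -0.03 in normoxia (-0.50 to 0.44). ITGA3, the laminin-binding subunit with the highest mean signal of the alpha genes, had 14.26, 14.24, 14.28 and 14.35 on doxycycline hypoxia arrays, 14.36, 14.29, 14.57 and 14.09 on vehicle hypoxia arrays, 14.12, 14.30, 14.17 and 14.20 on doxycycline normoxia arrays and 14.55, 14.34, 14.39 and 14.43 on vehicle normoxia arrays. Its doxycycline normoxia arrays were all below its vehicle normoxia arrays, yet the difference of -0.23 ± 0.08 missed the threshold (adjusted p = 0.0975), and the value was 0.0336 without vehicle hypoxia replicate 4.

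Of the beta subunits, ITGB8 and ITGB3 rose in hypoxia at both treatments. ITGB8 forms with ITGAV a receptor that releases active TGF-beta. Its signals were 8.85, 8.35, 8.31 and 7.27 in doxycycline hypoxia, against 6.66, 6.62, 7.51 and 6.85 in doxycycline normoxia. With vehicle they were 7.91, 7.58, 8.22 and 9.16 in hypoxia, against 6.27, 6.87, 6.44 and 6.40 in normoxia. All vehicle hypoxia arrays were above all vehicle normoxia arrays, while with doxycycline replicate 4 in hypoxia lay below replicate 3 in normoxia. Hypoxia gave 1.72 ± 0.34 with vehicle, 3.30-fold and the largest difference of any member (adjusted p = 0.00825), a call kept in all 16 fits with 1 array left out and under 9 of 12 other settings (adjusted p up to 0.127). With doxycycline it gave 1.29 ± 0.34, 2.44-fold (adjusted p = 0.0485), a call kept in 4 of the 16 fits, those without vehicle hypoxia replicate 2 or 4, doxycycline normoxia replicate 3 or doxycycline hypoxia replicate 4, and under 7 of 12 other settings (adjusted p up to 0.154). Doxycycline gave ITGB8 a difference of -0.02 in hypoxia (95% interval -0.75 to 0.71) and 0.42 in normoxia (-0.31 to 1.15), with no call.

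ITGB3, a partner of ITGAV in the vitronectin receptor, had the highest mean signal of the beta genes. It measured 14.77, 14.83, 14.89 and 14.91 in doxycycline hypoxia, against 14.50, 14.51, 14.53 and 14.47 in doxycycline normoxia. With vehicle the signals were 14.71, 14.45, 14.81 and 14.32 in hypoxia, against 14.28, 14.20, 14.29 and 14.30 in normoxia. Hypoxia arrays lay above normoxia arrays at each treatment. The difference was 0.34 ± 0.08 with doxycycline, 1.27-fold (adjusted p = 0.0341), and 0.30 ± 0.08 with vehicle, 1.23-fold (adjusted p = 0.0449). Leaving out 1 array kept the call in 7 of 16 fits with doxycycline and in 3 of 16 with vehicle, those 3 being without vehicle hypoxia replicate 2, vehicle hypoxia replicate 4 or doxycycline hypoxia replicate 4. The other settings kept it in 10 of 12 with doxycycline (adjusted p up to 0.0846) and in 8 of 12 with vehicle (adjusted p up to 0.278). With doxycycline ITGB3 differed by 0.28 in hypoxia (adjusted p = 0.0808) and 0.24 in normoxia (adjusted p = 0.0964).

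ITGB2, the beta subunit shared by leukocyte integrins, was close to the median level of all genes and lower in hypoxia with vehicle. Its signals were 5.08, 5.10, 5.09 and 5.17 on doxycycline hypoxia arrays, 5.03, 5.01, 5.02 and 4.88 on vehicle hypoxia arrays, 5.22, 5.26, 5.13 and 5.17 on doxycycline normoxia arrays and 5.20, 5.14, 5.18 and 5.20 on vehicle normoxia arrays. Hypoxia gave -0.19 ± 0.04 with vehicle (adjusted p = 0.0182), which was 0.0593 without vehicle normoxia replicate 4 and 0.0585 with arrays centred on their medians, and it was kept under 6 of 12 other settings (adjusted p up to 0.132). With doxycycline the hypoxia difference was -0.08 ± 0.04 (adjusted p = 0.423).

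ITGB1, the partner of ITGA1 and ITGA5, was the 1 member with 3 probe sets, and they disagreed. The brightest gave 15.09, 14.91, 14.79 and 14.22 on doxycycline hypoxia arrays, 14.54, 14.50, 14.05 and 15.19 on vehicle hypoxia arrays, 14.42, 14.14, 14.92 and 14.62 on doxycycline normoxia arrays and 13.68, 14.55, 14.24 and 14.22 on vehicle normoxia arrays. Its groups overlapped in every comparison, and doxycycline gave 0.18 ± 0.25 in hypoxia (adjusted p = 0.793) and 0.35 ± 0.25 in normoxia (adjusted p = 0.409). The second, dimmer probe set was looked at after its values were seen. It gave 7.19, 7.31, 7.27 and 7.18 on doxycycline hypoxia arrays, 6.83, 6.88, 6.86 and 6.89 on vehicle hypoxia arrays, 7.13, 7.20, 7.07 and 7.03 on doxycycline normoxia arrays and 6.55, 6.66, 6.68 and 6.66 on vehicle normoxia arrays. There the treatments did not overlap. In a limma fit over all 70523 probe sets the difference was 0.37 ± 0.06 in hypoxia (adjusted p = 0.00668) and 0.47 ± 0.06 in normoxia (adjusted p = 0.000792). The third probe set lay between 2.94 and 3.43 and gave no call.

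ITGB6, an epithelial partner of ITGAV, had group means of 8.97 with doxycycline and 8.38 with vehicle in hypoxia, and 8.69 and 7.49 in normoxia. Doxycycline gave 1.20 ± 0.37 in normoxia with no overlap of the arrays (adjusted p = 0.0548) and 0.58 ± 0.37 in hypoxia (adjusted p = 0.474). Without vehicle hypoxia replicate 4 the normoxia value was 0.02. ITGB5, another partner of ITGAV, differed by 0.33 ± 0.13 in hypoxia (adjusted p = 0.196) and 0.13 ± 0.13 in normoxia (adjusted p = 0.562).

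**Figure D2:**
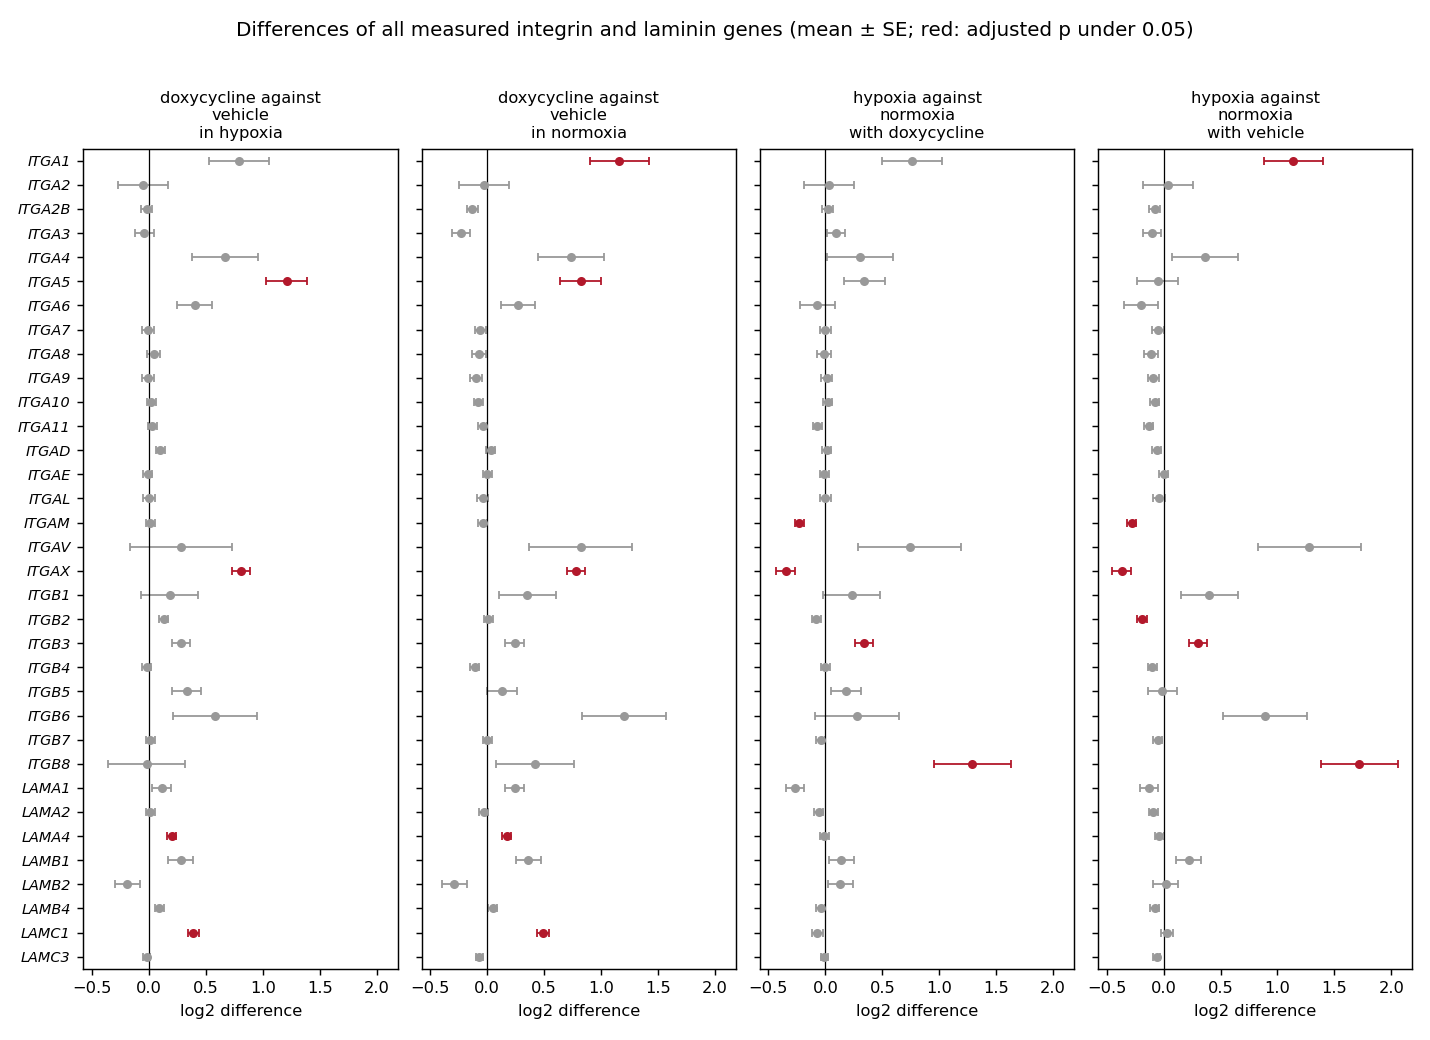
Log2 difference of each of the 34 members in the 4 comparisons of a single factor, 1 row per gene, with points for the difference and bars for ± 1 SE from the limma fit over 16 arrays. Red marks an adjusted p under 0.05; LAMC1 and LAMA4 are red with short bars in both doxycycline panels, whereas ITGAV and ITGB6 are far from 0 with long bars and no call.

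The remaining members were dim. In all, 18 of the 34 members reached the median level of all genes in at least 1 group, and 16 did not, their arrays lying between 3.21 and 4.87. Of these 16 only ITGAM and LAMA4 were called. ITGA2B, the platelet partner of ITGB3, lay between 4.06 and 4.37. ITGAL, ITGAD and ITGAE, which pair with leukocyte beta subunits, lay between 3.40 and 4.03. ITGB4, the hemidesmosome partner of ITGA6, lay between 3.68 and 3.90. ITGB7 lay between 3.48 and 3.71, and ITGA7, ITGA8, ITGA9, ITGA10 and ITGA11 between 3.21 and 4.21. For these genes a difference may lie below what the arrays resolve, so the lack of a call does not show that they stayed the same.

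No member depended on the combination of treatments at a level the test could show. The interaction, which asks whether the doxycycline effect differed between oxygen levels, gave 0 of 34 members and 0 of 22411 genes with limma, a background of 0%. At an unadjusted p under 0.05 it gave 0 members and 1026 of all genes, and the lowest adjusted p was 0.956 among members and 0.643 among all genes. The intervals were wide for several members, for instance -1.89 to 0.80 for ITGAV and -0.14 to 0.92 for ITGA5, and narrow for LAMC1 (-0.25 to 0.06) and ITGAX (-0.22 to 0.26). Thus ITGA1, called for doxycycline in normoxia alone, had an interaction of -0.38 (-1.17 to 0.41) and was not shown to respond differently in hypoxia.

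Members differed widely in how much they varied between arrays of 1 group. The SD within groups was 0.03 for LAMC3, the lowest, and 0.70 for ITGAV, the highest, with a median of 0.08 over members and 0.12 over all genes. For 7 members it was at least 0.3, namely ITGA1, ITGA2, ITGA4, ITGAV, ITGB1, ITGB6 and ITGB8. All 7 had their highest vehicle hypoxia signal on replicate 4 and their lowest doxycycline hypoxia signal on replicate 4. The SD and the axis described above come from the same deviations, so this match was largely set by how the 7 were picked. The share of all genes with that pattern was not counted. On replicate 4 of each hypoxia group, the ends of that axis, ITGAV deviated from its group mean by 1.08 in vehicle hypoxia and by -1.13 in doxycycline hypoxia. ITGB6 deviated by 1.02 and -0.74 on the same arrays, in that order, and ITGB8 by 0.95 and -0.92. ITGA5 and ITGB5 ran the other way, with deviations of -0.60 and -0.39 on vehicle hypoxia replicate 4 and of 0.16 and 0.14 on doxycycline hypoxia replicate 4. LAMC1 hardly moved on either array, at 0.03 and 0.00. With vehicle hypoxia replicate 4 left out, doxycycline called 8 members (23.5%) in hypoxia and 10 (29.4%) in normoxia. Calls over all genes rose as well, to 7.4% and 12.9%. With both of these arrays left out doxycycline called 9 members (26.5%) in hypoxia and 10 (29.4%) in normoxia. Over all genes the shares were then 10.6% and 14.1%. What sets these arrays apart was not tested.

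**Figure D3:**
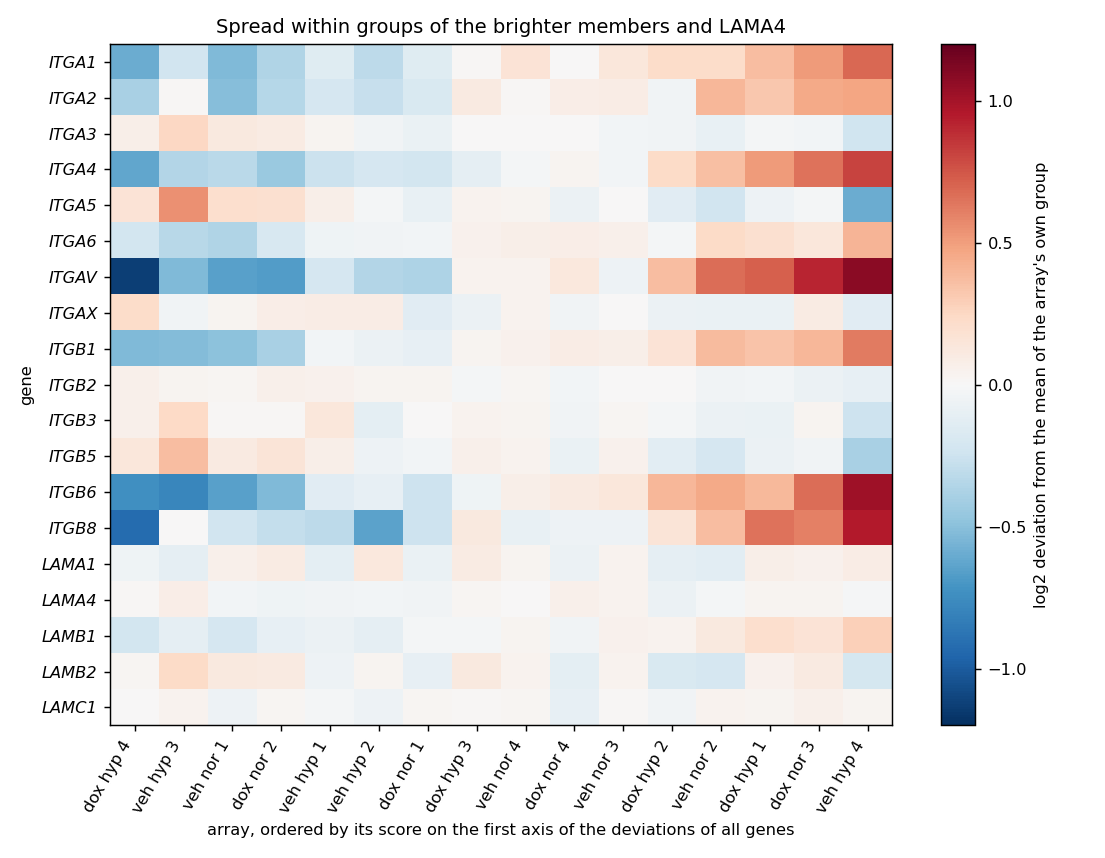
Log2 deviation of each array from the mean of its own group, for the 18 members that reached the median level of all genes and LAMA4 (rows), with the 16 arrays in columns ordered by their score on the first axis of the deviations of all genes. ITGAV, ITGB6, ITGB8, ITGA4, ITGA1 and ITGB1 run from below their group mean (blue) at the left, where doxycycline hypoxia replicate 4 stands, to above it (red) at the right, where vehicle hypoxia replicate 4 stands, whereas LAMC1 and LAMA4 stay near 0.

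Genes that work with integrins and laminins were taken from 6 lists of 129 genes, of which 119 were measured. The lists were chosen with earlier results of these data known. Doxycycline called 18 of the 119 in hypoxia (15.1%), 14 higher and 4 lower, where 4.66% of all genes were called, and 23 in normoxia (19.3%), 16 higher and 7 lower, where 9.08% of all genes were called. Hypoxia called 8 with doxycycline (6.72%), 1 higher and 7 lower, against 3.98% of all genes, and 12 with vehicle (10.1%), 3 higher and 9 lower, against 6.91% of all genes. With dim genes left out, 10.8% of the remaining genes were called for doxycycline in hypoxia and 18.4% in normoxia. For hypoxia the shares were 10.2% with doxycycline and 16.9% with vehicle. After that filter doxycycline called 16 partner genes higher and 4 lower in hypoxia, and 18 higher and 10 lower in normoxia. Hypoxia called 1 higher and 11 lower with doxycycline, and 5 higher and 10 lower with vehicle. How many partner genes remained was not counted, so partner shares stand against the wider background only. The median differences with doxycycline were 0.01 in hypoxia and -0.02 in normoxia, against -0.00 and -0.02 for all genes, and with hypoxia they were -0.01 with doxycycline and -0.05 with vehicle, the same as for all genes.

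Ligands of integrins outside the laminins held the largest increase called in these lists. Of 27 measured, doxycycline raised 5 and lowered 0 in hypoxia, and raised 4 and lowered 1 in normoxia. That was 18.5% each time, where 4.66% of all genes were called in hypoxia and 9.08% in normoxia. THBS1, thrombospondin, an adhesive glycoprotein that also activates TGF-beta, had signals of 10.64, 10.82, 10.67 and 10.88 with doxycycline in hypoxia, against 9.34, 9.58, 8.67 and 9.59 with vehicle. Normoxia arrays gave 10.39, 10.45, 10.49 and 10.25 with doxycycline, against 8.94, 9.06, 9.18 and 9.07 with vehicle. The treatments were about 1 log2 unit apart or more at both oxygen levels. The difference was 1.46 ± 0.16 in hypoxia, 2.75-fold (adjusted p = 7.17e-05), and 1.33 ± 0.16 in normoxia, 2.51-fold (adjusted p = 0.000112). LTBP1, which stores latent TGF-beta in the matrix, was higher by 0.48 in hypoxia (adjusted p = 0.000141) and 0.42 in normoxia (adjusted p = 0.000295). COL1A1, a type I collagen chain near the median level of all genes, was higher by 0.28 in hypoxia (adjusted p = 0.00212). MFGE8, an RGD ligand of ITGAV, was higher by 0.67 in normoxia (adjusted p = 0.000469), and TNC, tenascin, fell there by 0.59 on the log2 scale (adjusted p = 0.00142). FN1, fibronectin and the main ligand of the ITGA5 receptor, differed with doxycycline by -0.27 in hypoxia (adjusted p = 0.118) and 0.14 in normoxia (adjusted p = 0.374). With vehicle, hypoxia raised FN1 by 0.59 (adjusted p = 0.00179), while LTBP1 fell by 0.29 (adjusted p = 0.0073).

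Proteins at the inner face of integrins were represented by 15 measured activators and inhibitors and by 35 genes of the focal adhesion core. Of the activators and inhibitors, doxycycline raised 2 in hypoxia (13.3%) and 3 in normoxia (20.0%) and lowered 0. Over all genes 4.66% were called in hypoxia and 9.08% in normoxia. FERMT2, a kindlin that activates beta subunits, was higher by 0.78 ± 0.17 in hypoxia (adjusted p = 0.0128) and 0.75 ± 0.17 in normoxia (adjusted p = 0.0107). TLN2, a talin, was higher by 0.26 in hypoxia (adjusted p = 0.00566) and 0.33 in normoxia (adjusted p = 0.000661), and fell in hypoxia by 0.29 on the log2 scale with doxycycline (adjusted p = 0.00464) and fell by 0.22 with vehicle (adjusted p = 0.0168). APBB1IP, which brings talin to the membrane, was higher by 0.36 in normoxia (adjusted p = 0.0376), a call kept in 7 of 16 fits with 1 array left out. Of the focal adhesion core, doxycycline raised 2 and lowered 2 in hypoxia, and raised 4 and lowered 3 in normoxia. These were 11.4% and 20.0%, against the same shares of all genes. TNS1, a tensin that links integrins to actin, was higher by 0.61 in hypoxia (adjusted p = 0.000205) and 0.81 in normoxia (adjusted p = 1.19e-05). LPXN, a relative of paxillin, was higher by 0.72 in hypoxia (adjusted p = 0.00337) and 0.61 in normoxia (adjusted p = 0.0072).

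AJUBA, a LIM protein of cell contacts that takes part in Hippo signalling, had the largest decrease called in these lists. In hypoxia its signals were 10.07, 10.04, 10.27 and 10.55 with doxycycline, against 11.76, 11.74, 12.02 and 11.25 with vehicle. Under normoxia they were 9.73, 9.98, 9.80 and 9.64 with doxycycline, against 11.70, 11.33, 11.68 and 11.71 with vehicle. No vehicle array came down to a doxycycline array. It fell by 1.46 on the log2 scale in hypoxia (adjusted p = 6.64e-05) and fell by 1.82 in normoxia (adjusted p = 6.13e-06). ACTN4, an actin crosslinker, fell by 0.25 in hypoxia (adjusted p = 0.0281) and fell by 0.24 in normoxia (adjusted p = 0.0234), calls kept in 12 and 11 of the 16 fits with 1 array left out.

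Hemidesmosome genes and laminin receptors outside the integrins gave mostly lower signals among those called. Of 10 measured, doxycycline lowered 1 and raised 0 in hypoxia, and lowered 3 and raised 1 in normoxia. Among all genes 4.66% were called in hypoxia, 1.99% lower and 2.67% higher. In normoxia the share of all genes was 9.08%, with 4.65% lower and 4.43% higher. The hypoxia count is BCAM alone, and so few calls among 10 genes cannot show that the list leans lower. BCAM, the Lutheran glycoprotein that binds laminin, had 6.86, 6.80, 7.01 and 6.98 with doxycycline in hypoxia, against 7.56, 7.63, 7.97 and 7.47 with vehicle. It fell there by 0.75 on the log2 scale (adjusted p = 0.000617) with no overlap. In normoxia it fell by 0.37 (adjusted p = 0.0391), a call kept in 7 of 16 fits with 1 array left out. SDC1, a syndecan, fell by 0.80 in normoxia (adjusted p = 0.000678) and differed by -0.34 in hypoxia (adjusted p = 0.139), whereas SDC2, another syndecan, was higher by 0.50 in normoxia (adjusted p = 0.0108).

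**Figure D4:**
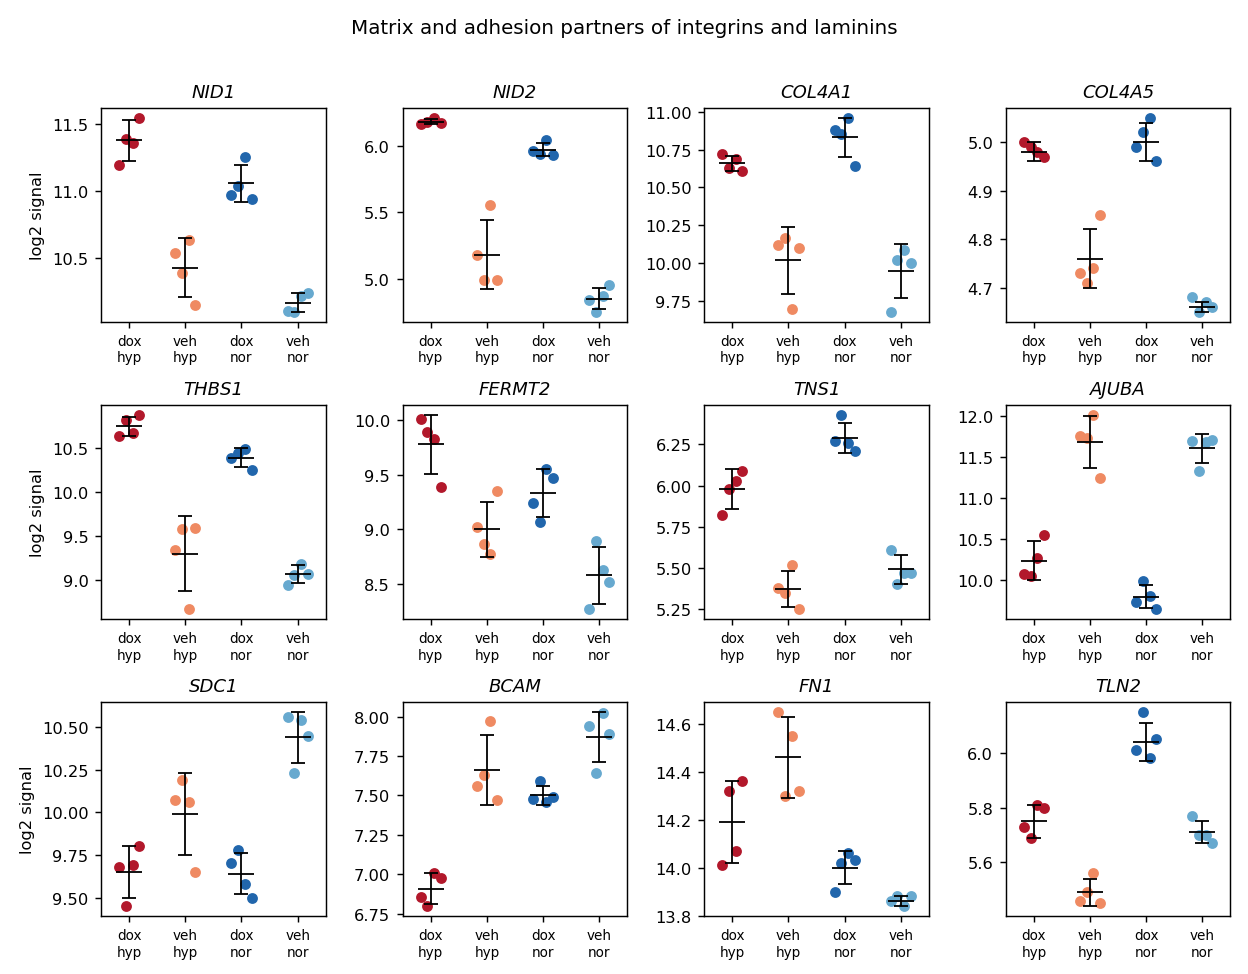
Log2 signal of 12 partner genes in the 4 groups, 1 panel per gene with its own axis, with points for arrays and bars for the mean ± SD (n = 4; dox, doxycycline; veh, vehicle; hyp, hypoxia; nor, normoxia). Doxycycline arrays of NID1, NID2, COL4A1, COL4A5, THBS1, FERMT2 and TNS1 lie above vehicle arrays at the same oxygen level, and those of AJUBA lie below.

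In hypoxia the partner genes gave fewer calls. With vehicle, RSU1, a partner of the ILK complex, rose by 0.33 (adjusted p = 0.00706) and APBB1IP by 0.46 (adjusted p = 0.0146). TNS2, another tensin, fell in hypoxia by 0.30 on the log2 scale with doxycycline (adjusted p = 0.0154) and fell by 0.31 with vehicle (adjusted p = 0.00972). BCAM fell in hypoxia by 0.59 with doxycycline (adjusted p = 0.00535) and differed by -0.21 with vehicle (adjusted p = 0.216). CCN1, a matricellular ligand of ITGAV, was the 1 gene of the lists that rose in hypoxia with doxycycline, by 0.41 (adjusted p = 0.0464), and the call was kept in 5 of 16 fits with 1 array left out.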

How the data were processed

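RNA from 16 cultures of A498 cells (250 ng per array, per the labels) was made into biotinylated cDNA and hybridised to human arrays by the study, whose methods name an array type for other samples only. The authors deposited log2 values made by RMA, which the submitters' processing notes name together with Transcriptome Analysis Console, without versions. For build, scan dates and log base the sources used here state nothing, and log2 was taken from the range of the values (1.71 to 19.85, with 590 probe sets above 16 on all arrays). Array medians lay between 3.91 and 4.11, and the number of arrays limits the precision.

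The table held 70523 probe sets, of which 23781 had 1 gene symbol in the platform annotation, 1543 several and 45199 none. Only those with 1 symbol were used. Symbols were updated against RefSeq (GRCh38.p14): the gene identifier matched for 21497 probe sets and the symbol or a synonym for 2280, while 4 kept the symbol given. The brightest probe set per gene gave 22411 genes. LAMA5 and LAMB3 share their probe set's annotation with a microRNA. A further probe set of ITGA1 is annotated with PELO as well and was not used.

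Groups came from the titles. limma 3.58.1 in R 4.3.3 fitted 4 group means to all arrays with an intensity trend, tested two-sided, with Benjamini-Hochberg adjustment over all genes and a threshold of 0.05. The study's methods name a t-test or ANOVA, which was run as an alternative. The fit was also run on simulated data with independent noise for each gene and array. That noise lacks the axis shared by these arrays (63.3% of the variance within groups), so the run cannot show how the fit behaves with it. The tables were prepared in Python 3.11.15. The members and lists were chosen with earlier results of these data known. Array values are printed for every member called, the brightest of each family and a few others, and partner genes are the up to 3 per list, direction and comparison with the smallest adjusted p. ITGAV, ITGB1 and FN1 were printed in addition after their values were seen. Of the partner genes the rule names, a selection is printed, with array values for those of the largest change. Promoters come from RefSeq, with windows for 23 of 34 members. Alternatives were a block for the replicate number, fits without 1 array or a pair of arrays, other normalizations, filters, probe set rules, weights and fits.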

Additional observations from a re-analysis of the deposited data

Results flagged for a closer look

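In 5 of the 52 groups of 4 arrays examined, 1 array stood apart from the other arrays of its group by Dixon's test at 95%, where chance gives about 1 in 20. ITGA1 measured 8.83 on vehicle hypoxia replicate 4, against 7.82 to 7.98 on the other arrays of that group, and 6.47 on vehicle normoxia replicate 1, against 7.14 to 7.21. ITGAM measured 4.50 on vehicle hypoxia replicate 3, against 4.56 to 4.57. ITGAX measured 6.96 on doxycycline hypoxia replicate 4, against 6.66 to 6.67. ITGB2 measured 4.88 on vehicle hypoxia replicate 4, against 5.01 to 5.03. Vehicle hypoxia replicate 4 and doxycycline hypoxia replicate 4 are also the ends of the main axis of variation within groups, and what sets them apart was not tested.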

How the results depend on the processing

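Among the members called, no difference changed sign under the 28 alternatives, which were 16 fits with 1 array left out and 12 other settings. Among the calls of single members, 260 values with 1 array left out and 186 under other settings stayed past the threshold while 44 and 38 did not, and DGAT1 and DGAT2 fell with doxycycline under each. The cause of the moves below was not tested. Fits that left arrays out or used the compared arrays alone also rest on fewer arrays.

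Members called with doxycycline in hypoxia (4 in the main analysis) were 13 with array weights, 2 with the methods' t-test, 9 without vehicle hypoxia 4 and doxycycline hypoxia 4, 8 without vehicle hypoxia 4 and vehicle normoxia 1, and 4 to 8 with 1 array left out. In normoxia (5) they were 8 with another quantile normalization, 11 with array weights, 9 with the compared arrays alone, 10 without vehicle hypoxia 4 and doxycycline hypoxia 4, and 4 to 10 with 1 array left out. Under hypoxia with doxycycline (4) they were 1 with all probe sets tested, 7 with array weights, 2 with the compared arrays alone, 1 with the methods' t-test and 1 to 4 with 1 array left out. Under hypoxia with vehicle (6) they were 11 with array weights, 1 with the compared arrays alone, 0 with the methods' t-test, 2 without vehicle hypoxia 4 and vehicle normoxia 1, and 4 to 6 with 1 array left out. Array weights raised the calls over all genes as well, to 22.7% with doxycycline in hypoxia.

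Partner genes called with doxycycline in hypoxia (18) were 45 with array weights, 9 with the compared arrays alone, 8 with the methods' t-test and 15 to 22 with 1 array left out. In normoxia (23) they were 44 with array weights and 19 to 29 with 1 array left out. Under hypoxia with doxycycline (8) they were 3 with all probe sets, 4 with another quantile normalization, 23 with array weights, 14 without vehicle hypoxia 4 and doxycycline hypoxia 4, 13 without vehicle hypoxia 4 and vehicle normoxia 1, and 2 to 14 with 1 array left out. Under hypoxia with vehicle (12) they were 6 with all probe sets, 34 with array weights, 1 with the compared arrays alone, 0 with the methods' t-test, 5 without vehicle hypoxia 4 and vehicle normoxia 1, and 7 to 17 with 1 array left out.

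Settings also moved the split of calls by direction. Under hypoxia with doxycycline, members higher and lower were 2 and 2 in the main analysis. They were 1 and 2 when arrays were centred on their medians and 2 and 1 with another quantile normalization. Partner genes higher and lower under hypoxia with vehicle were 4 and 4 when centred, against 3 and 9, and with doxycycline 1 and 3 with quantile normalization, against 1 and 7. With doxycycline in normoxia they were 20 and 5 when centred, against 16 and 7. Over all genes 48.8% of calls with doxycycline in normoxia were higher, against 66.5% when centred and 60.7% with quantile normalization. Under hypoxia 32.7% were higher with vehicle, against 48.6% when centred, and 25.5% with doxycycline, against 39.0% with quantile normalization. With doxycycline in hypoxia 57.2% were higher, against 76.2% with quantile normalization, 40.1% with array weights, 35.6% without vehicle hypoxia 4 and doxycycline hypoxia 4, and 40.5% without vehicle hypoxia 4 and vehicle normoxia 1. Members higher and lower with doxycycline in normoxia were 9 and 2 with array weights, 8 and 1 with the compared arrays alone and 9 and 1 without vehicle hypoxia 4 and doxycycline hypoxia 4, against 5 and 0 in the main analysis.

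Same-numbered arrays did not deviate together (24 pairs, r from -0.835 to 0.536, 8 over 0.1), and 2 of 16 arrays correlated best with their own number, so the numbers were not taken as pairs. With the replicate number as a block, members called were 4 and 5 with doxycycline in hypoxia and normoxia, and 1 and 4 under hypoxia with doxycycline and vehicle. Partner genes under hypoxia were 2 with doxycycline and 7 with vehicle under that block. Signals near the floor limit the dim members, and LAMA4 and ITGAM had no value where dim genes were left out.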

Other observations

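Tetraspanins and trafficking proteins that carry integrins through the cell were measured through 14 genes. CD82, a tetraspanin that binds integrins and restrains cell movement, had signals of 10.62, 10.66, 10.67 and 10.86 with doxycycline in hypoxia, against 10.08, 10.26, 10.24 and 9.84 with vehicle. It was higher by 0.60 ± 0.10 there (adjusted p = 0.00198). In normoxia CD82 averaged 11.04 ± 0.12 with doxycycline and 10.72 ± 0.08 with vehicle (SD, n = 4 each) and was not called. Hypoxia lowered it with vehicle, by 0.62 on the log2 scale (adjusted p = 0.0024). ARF6, a small GTPase that recycles integrins, fell with doxycycline in hypoxia by 0.35 (adjusted p = 0.0265), a call kept in 11 of 16 fits with 1 array left out. NME1, known for its part in endocytosis and metastasis, fell in hypoxia with vehicle by 0.37 (adjusted p = 0.0213), a call kept in 13 of those fits. Of the 14 genes, 2 (14.3%) were called for doxycycline in hypoxia and 0 in normoxia, against 4.66% and 9.08% of all genes. For hypoxia 0 were called with doxycycline and 2 (14.3%) with vehicle, against 3.98% and 6.91% of all genes. At an unadjusted p under 0.05 the counts of 0 were 4 for doxycycline in normoxia and 3 for hypoxia with doxycycline.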
